A study of Mus musculus with 12 samples.

Results

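Most mammalian genes can be read out as more than 1 transcript, and the choice between these transcripts was followed here across 12 mouse lung cancer libraries. Genes were kept where at least 2 transcripts were listed and the transcripts together held 50 or more estimated read counts in every library. This left 7270 of 19212 genes, with 40472 of 68870 listed transcript accessions. The share of a transcript is its count as a percentage of the summed count of its gene, and differences between shares are given in percentage points. Counts grow with transcript length, so such a share weighs long transcripts more than a share of TPM, a length-scaled measure, does. At the edge of the rule, Ano1 and Arid3b had 50 counts in their lowest library and were kept, while Mthfs, at 49.87, and Prc1, at 49.25, were left out. Otub1 itself is listed with 1 transcript, so the rule leaves out the gene that 1 of the experiments targeted.

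The libraries form 2 experiments of 6 that share no sample. In the first, LLC cells (Lewis lung carcinoma, a tumour line of the mouse lung that can be transplanted) received a negative control lentivirus (group NC, genotype WT) or a lentivirus for OTUB1 knockdown (group OTUB1_KD) before orthotopic tumours were made from them. In the second, tumour-bearing mice of genotype WT received physiological saline (group Blank) or SFD@M (group SFD@M), whose composition, dose and timing the labels do not give. Each group has 3 libraries. All 12 share the LLC line and the labelled tissue, lung cancer. The titles of the Blank libraries carry codes beginning with KD, so these were grouped by the word Blank and their saline treatment. The labels do not say whether the 3 libraries of a group are 3 animals. The p-values below reflect how far those libraries spread, and that spread may be technical.

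The cell content of the libraries differed with the groups. Summed over 4 leukocyte genes, levels were 0.465 to 2.49 CPM (the usual count scaled by the library total) in the NC and Blank libraries and 569 to 842 CPM in the OTUB1_KD and SFD@M libraries. For 4 alveolar type 2 cell genes, including the surfactant gene Sftpc, the ranges were 0 to 0.374 and 9504 to 23036 CPM. For 4 genes of dividing cells, including Mki67, they were 2293 to 2386 and 22.1 to 710 CPM. The label of lung-rich and tumour-cell libraries therefore fits all 12 libraries by these markers, and the labelled tumour tissue of NC and Blank held almost no RNA of leukocytes or alveolar type 2 cells. Every comparison of shares that follows is between libraries that differ in this way. OTUB1_KD and SFD@M also differed from each other in content. For 4 red cell genes the sums were 5472 to 10604 CPM in OTUB1_KD and 9.48 to 180 CPM in SFD@M. For 4 airway epithelium genes they were lower in OTUB1_KD, at 12251 to 31530 CPM against 34254 to 37230 CPM. In such bulk samples fewer cells of a type and less RNA per cell cannot be told apart, and neither can a change of isoform within a cell type and a change in which cell types gave the reads.

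Alternative transcripts arise from alternative promoters, from alternative splicing of inner exons and from alternative last exons or polyadenylation sites. They can leave the protein as it is and change only the untranslated ends, or they can add, remove or replace a piece of the protein. Epithelial, mesenchymal, endothelial and blood cells are known to use different isoforms of many cytoskeletal, adhesion and traffic genes, under the control of RNA-binding proteins such as the SR, hnRNP, MBNL, RBFOX and Quaking families.

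The coding differences of 8 genes carry much of what follows, and their sequences are printed here because they show which part of the message was exchanged. They were read from GENCODE M21 transcripts of GRCm38 that the annotation links to the RefSeq accessions, and run 5′ to 3′ without the stop codon. Capitals mark the coding bases that the named transcript has and its partner lacks, and lower case marks up to 15 shared coding bases on either side.
Gsn NM_146120, start (secreted gelsolin, with a signal peptide): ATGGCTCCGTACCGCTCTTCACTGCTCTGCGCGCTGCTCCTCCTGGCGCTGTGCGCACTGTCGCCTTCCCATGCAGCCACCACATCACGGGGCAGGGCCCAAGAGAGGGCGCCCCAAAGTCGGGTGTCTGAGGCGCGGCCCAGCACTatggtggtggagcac
Qk NM_001159517, end (QKI-5): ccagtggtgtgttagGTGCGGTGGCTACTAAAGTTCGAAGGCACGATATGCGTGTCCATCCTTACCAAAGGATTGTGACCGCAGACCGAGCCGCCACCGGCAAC
Qk NM_001159516, end (QKI-6): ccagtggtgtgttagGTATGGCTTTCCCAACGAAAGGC
Cttn NM_007803, inner repeat: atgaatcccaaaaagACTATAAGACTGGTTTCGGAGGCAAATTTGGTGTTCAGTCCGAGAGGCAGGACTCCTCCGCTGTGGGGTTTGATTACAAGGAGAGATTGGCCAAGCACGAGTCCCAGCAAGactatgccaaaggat
Ap1s2 NM_026887, end: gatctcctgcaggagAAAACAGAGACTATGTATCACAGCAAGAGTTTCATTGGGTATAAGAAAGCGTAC
Ap1s2 NM_001290378, end: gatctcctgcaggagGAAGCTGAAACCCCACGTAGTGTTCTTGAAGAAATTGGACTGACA
Mrtfa NM_153049, start: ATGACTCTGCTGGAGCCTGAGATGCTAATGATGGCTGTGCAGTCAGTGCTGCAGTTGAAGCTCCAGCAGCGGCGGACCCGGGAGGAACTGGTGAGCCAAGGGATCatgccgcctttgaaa
Pik3r1 NM_001024955, start (p55-alpha): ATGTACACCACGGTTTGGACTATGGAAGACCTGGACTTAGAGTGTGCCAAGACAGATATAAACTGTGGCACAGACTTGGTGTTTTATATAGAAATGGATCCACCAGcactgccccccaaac
Macroh2a1 NM_001159513, inner exon (macroH2A1.2): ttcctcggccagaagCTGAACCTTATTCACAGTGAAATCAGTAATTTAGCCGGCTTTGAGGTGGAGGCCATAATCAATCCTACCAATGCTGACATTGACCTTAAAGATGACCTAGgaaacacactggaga
Macroh2a1 NM_001159515, inner exon (macroH2A1.1): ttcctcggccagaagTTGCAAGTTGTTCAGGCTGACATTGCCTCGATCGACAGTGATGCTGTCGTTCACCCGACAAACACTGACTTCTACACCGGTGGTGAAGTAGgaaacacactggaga
Pkm NM_011099, inner exon (PKM2): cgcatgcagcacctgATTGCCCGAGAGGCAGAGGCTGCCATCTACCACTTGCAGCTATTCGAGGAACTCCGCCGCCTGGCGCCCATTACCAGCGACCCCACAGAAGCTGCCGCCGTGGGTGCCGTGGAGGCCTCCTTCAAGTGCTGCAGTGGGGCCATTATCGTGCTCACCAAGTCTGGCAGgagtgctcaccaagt
Pkm NM_001253883, inner exon (PKM1): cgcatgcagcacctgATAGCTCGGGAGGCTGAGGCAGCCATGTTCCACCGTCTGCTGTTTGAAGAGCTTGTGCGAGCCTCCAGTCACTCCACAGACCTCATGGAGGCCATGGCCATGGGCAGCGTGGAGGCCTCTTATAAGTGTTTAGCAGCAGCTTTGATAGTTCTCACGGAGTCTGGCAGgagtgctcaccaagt

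Gelsolin, the actin-severing protein encoded by Gsn, changed from its cytoplasmic to its secreted message. NM_146120, whose first 147 coding bases include those of the signal peptide of secreted gelsolin, held 0, 0.0732 and 0.0784% of the Gsn counts in the 3 NC libraries and 73.6, 93.2 and 80.0% in the OTUB1_KD libraries. It held 0% in the 3 Blank libraries, where 3 counts of the smallest gene sum would be a share of 0.0468%, and 87.3, 87.4 and 91.8% in the SFD@M libraries. The lowest library of OTUB1_KD or SFD@M thus lay far above the highest of NC or Blank. The cytoplasmic NM_001206367 went from 85.9% ± 1.49 (SD, n = 3) in NC to 12.5% ± 8.15 in OTUB1_KD, and from 84.9% ± 2.44 in Blank to 6.46% ± 1.5 in SFD@M. The log2 change of usage compares the change of a transcript with that of its whole gene, itself included. For NM_001206367 it was -3.21 ± 0.68 (SE) in the knockdown experiment and -3.91 ± 0.16 in the treatment experiment (edgeR, adjusted p = 0.038 and 2.6e-06). The level of the whole gene was 894 CPM ± 27.4 in NC, 2272 ± 954 in OTUB1_KD, 380 ± 7.80 in Blank and 2728 ± 290 in SFD@M, and gene levels were not tested here.

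Quaking (Qk), an RNA-binding protein that itself controls splicing, exchanged the end of its coding sequence. QKI-6, the form with the short end printed above, held 3.12 to 5.33% of Qk in NC and 7.80 to 8.10% in Blank. Its share was 35.4, 50.8 and 55.2% in the OTUB1_KD libraries and 49.7, 55 and 55.2% in the SFD@M libraries, with no overlap between the groups of either experiment. The log2 change of usage was 3.53 ± 0.44 (SE) and 2.73 ± 0.13 (adjusted p = 8.1e-05 and 1.1e-10). QKI-5, which carries the nuclear localization signal, went from 77.4% ± 1.84 to 37.3% ± 14.5 and from 78.5% ± 0.433 to 28.4% ± 0.884, and passed the test in the treatment experiment (adjusted p = 3.6e-07) but not in the knockdown experiment (adjusted p = 0.28; 0.037 by limma on logit shares). The level of the gene was 211 CPM ± 5.48, 249 ± 74.6, 307 ± 3.96 and 441 ± 10.4 in NC, OTUB1_KD, Blank and SFD@M.

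Cortactin (Cttn), which binds and stabilizes branched actin filaments, was more often read out without 1 of its actin-binding repeats. The transcript that lacks the 111 bases printed above, NM_001252572, held 7.23, 8.52 and 12.0% of Cttn in NC and 27.2, 44.9 and 38.0% in OTUB1_KD. It held 13.8 to 14.0% in Blank and 48.4, 39.0 and 49.3% in SFD@M. Groups did not overlap in either experiment, and the log2 changes of usage were 1.98 ± 0.29 and 1.70 ± 0.16 (adjusted p = 0.0057 and 6.1e-05). The level of Cttn itself lay between 143 and 169 CPM in the group means.

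In Ap1s2, which encodes a small subunit of the AP-1 clathrin adaptor, the coding end was exchanged. NM_001290378 held 11.1, 7.94 and 10.00% of Ap1s2 in NC and 54.8, 70.6 and 70.4% in OTUB1_KD. It held 22.4 to 23.1% in Blank and 66.8 to 70.0% in SFD@M. All 6 OTUB1_KD and SFD@M libraries exceeded the highest of NC and Blank, with log2 changes of usage of 2.73 ± 0.35 and 1.58 ± 0.11 (adjusted p = 0.0025 and 0.0026). The gene level was 70.5 CPM ± 1.15 in NC and 47.5 ± 12.3 in OTUB1_KD, and 30.8 ± 1.88 in Blank and 74.6 ± 5.65 in SFD@M, so the means of the gene lay in opposite order in the experiments while the isoform moved the same way.

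Mrtfa, a coactivator of serum response factor that responds to the actin state of the cell, showed the same pattern at its start. NM_153049, which starts with the 105 coding bases printed above, held 4.96 to 6.78% of Mrtfa in NC and 5.04 to 8.77% in Blank. The shares were 44.4, 73.2 and 61.9% in OTUB1_KD and 58.4, 48.8 and 83.0% in SFD@M. The gain was clear of overlap in both experiments but uneven among the libraries that showed it, with log2 changes of 3.39 ± 0.47 and 3.19 ± 0.61 (adjusted p = 0.0025 and 0.011).

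**Figure D1:**
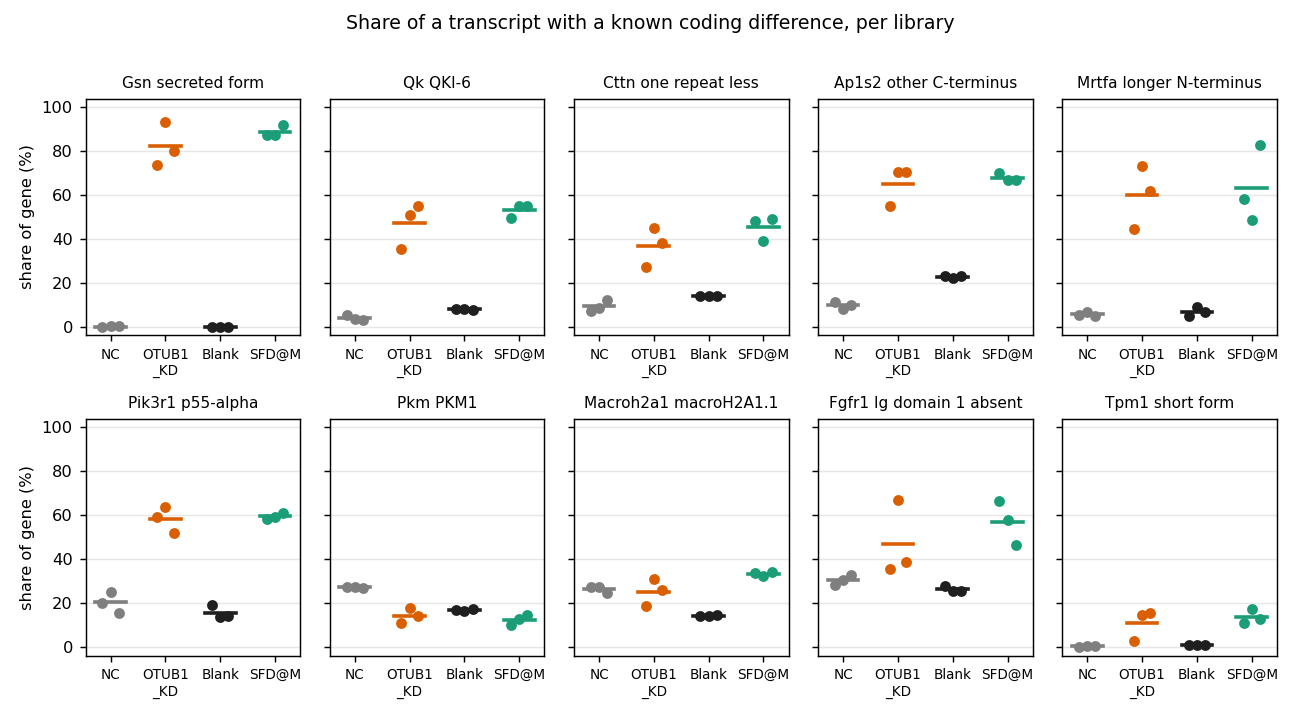
Share of 10 transcripts with a coding difference from their partner, as a percentage of the counts of the gene. Each point is 1 library and each bar a group mean of 3 libraries. Gsn, Qk, Cttn, Ap1s2 and Mrtfa separate OTUB1_KD and SFD@M from NC and Blank, whereas the PKM1 share of Pkm stays below 30% in every library.

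Across all members, 17496 transcripts of 5840 genes held at least 5% of their gene on average and were tested. With both experiments pooled, 1676 transcripts (9.58% of those tested) passed an adjusted p of 0.05 in edgeR's quasi-likelihood test of usage, 1029 with a higher and 647 with a lower share in OTUB1_KD and SFD@M. This lean to higher shares was smaller with a newer quasi-likelihood fit of edgeR, which called 2446 higher and 2133 lower. The other tools gave near-even splits, as limma voom called 2810 higher and 2713 lower, limma on logit shares 2811 and 2802, and DESeq2 3712 and 3809. By the Simes test, which combines the transcripts of a gene, 1212 genes (20.8%) passed. Fitted alone, the knockdown experiment gave 439 transcripts (2.51%) and the treatment experiment 1191 (6.81%). The difference between the experiments passed the test for 67 transcripts (0.383%).

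Both experiments showed the same direction for 12672 of 17496 transcripts (72.4%). Of the 1043 transcripts called in SFD@M against Blank with a difference of at least 10 points and no overlap, 982 (94.2%) moved the same way in OTUB1_KD against NC, though only 252 (24.2%) were called there. Of the 374 chosen in the same way in OTUB1_KD against NC, 359 (96.0%) moved the same way in SFD@M against Blank, and 237 (63.4%) were called. Across the 17496 transcripts the correlation of both differences was 0.701, a description over transcripts that share libraries and, within a gene, add up to its whole.

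**Figure D2:**
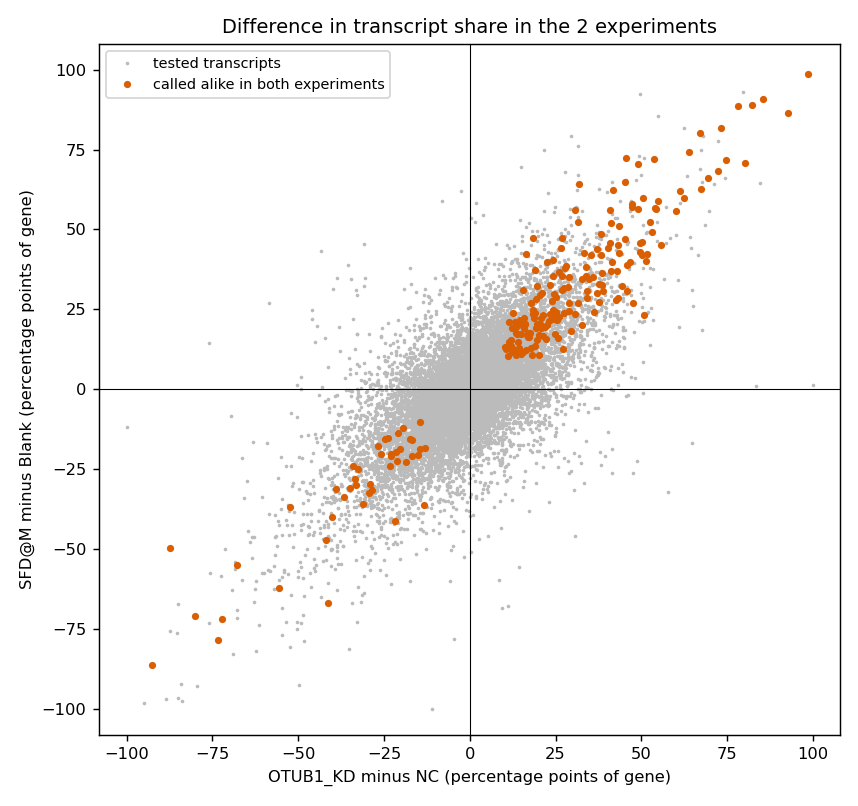
Difference in transcript share between OTUB1_KD and NC (x axis) and between SFD@M and Blank (y axis), in percentage points, for the 17496 tested transcripts (grey) and the 221 called alike in both experiments (orange). Points gather along the rising diagonal, and most of the 221 lie in the upper right.

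A transcript was counted as moved alike when it passed the test in each experiment fitted alone, in the same direction, by at least 10 points in both and without overlap of libraries in either. This held for 221 transcripts (1.26% of those tested) in 203 genes (3.48%). Of them 177 (80.1%) had the higher share in OTUB1_KD and SFD@M, and 143 of these 177 (80.8%) held under 5% of their gene in both NC and Blank. That lean depended on the test: a test of logit shares in limma counted 788 transcripts, 57.4% of them higher, and limma voom counted 865, 51.1% of them higher. The newer quasi-likelihood fit counted 842, of which 494 were higher and 348 lower. Whatever the test, 2523 transcripts (14.4%) were apart by 10 points without overlap in both experiments. Over the 221, the smaller of both differences had a median of 24.6 points, and NC and Blank differed from each other by a median of 0.554 points, with 143 of the 221 under 5% in both. Over all 17496 tested transcripts these medians were 4.29 and 3.55 points. Without OTUB1_KD replicate 1 the count was 334, and 207 of the 221 were among them.

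The genes with the largest such changes were Apoe, Ptgis, Nr4a1, Gsn, Serinc2, Egfl7, Shroom4, Tppp3, Hopx, Arid5b, Tmcc2, Fmo1, Mcf2l, Mtus1, Aldh7a1, Phc2, Epb41l2, Macf1, Tbx4 and Mrtfa. Among the transcripts moved alike, that with the largest change gained share in OTUB1_KD and SFD@M in 18 of these 20 genes, and in 11 genes it was at 0% in all 6 NC and Blank libraries. In Serinc2, Egfl7 and Mcf2l another transcript, which passed in the treatment experiment alone, lost more than that one gained: Egfl7 NM_001164564 differed by -88.5 and -96.8 points (adjusted p = 0.19 and 0.0025). In 8 of the 20 the gene held under 200 counts in its lowest library. For Apoe, which encodes the lipid carrier apolipoprotein E, NM_009696 held 98.1 to 98.9% in every OTUB1_KD and SFD@M library and 0% in every NC and Blank library. The Apoe sum there was as low as 70 counts, of which 3 would be 4.29%, and its level was 4.72 and 7.87 CPM in NC and Blank against 747 and 500 CPM in OTUB1_KD and SFD@M. NC and Blank instead carried the predicted transcript XM_030242015, at 72.8% ± 7.37 and 72.4% ± 4.01. Most of the rest lay on the curated NM_001305819, at 23.6 and 24.7%, which has the same coding sequence as NM_009696. Its loss was also alike in both experiments. XM_030242015 has an effective length of 2702 bases and NM_001305819 of 932.2. By shares of TPM they were close, at 48.7 and 45.3% in NC and 47.9 and 47.3% in Blank.

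Ptgis, the prostacyclin synthase of vessels, gave NM_008968 in the same way: it held 96.2, 89.1 and 92.5% in OTUB1_KD, 80.6, 88.7 and 89.6% in SFD@M and 0% in all others. Nr4a1, an immediate-early nuclear receptor, had NM_010444 at 81.6 to 87.7% in OTUB1_KD, at 88.5 to 94.3% in SFD@M and at 0% in NC and Blank. Egfl7, secreted by endothelial cells, had NM_198724 at 73.3% ± 6.62 in OTUB1_KD and 81.8% ± 2.94 in SFD@M, again against 0%. Endothelial markers moved with these shares: 4 endothelial genes summed to 0.654 to 1.42 CPM in NC and Blank and to 659 to 2199 CPM in OTUB1_KD and SFD@M, and their part in the result was not tested. The 2 leading Egfl7 transcripts encode the same protein, as do those of Hopx, a marker of alveolar type 1 cells. For Hopx, NM_175606 held 0 to 3.08% in NC and 0% in Blank and reached 63.6 to 81.8% in OTUB1_KD and 65.0 to 71.8% in SFD@M.

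**Figure D3:**
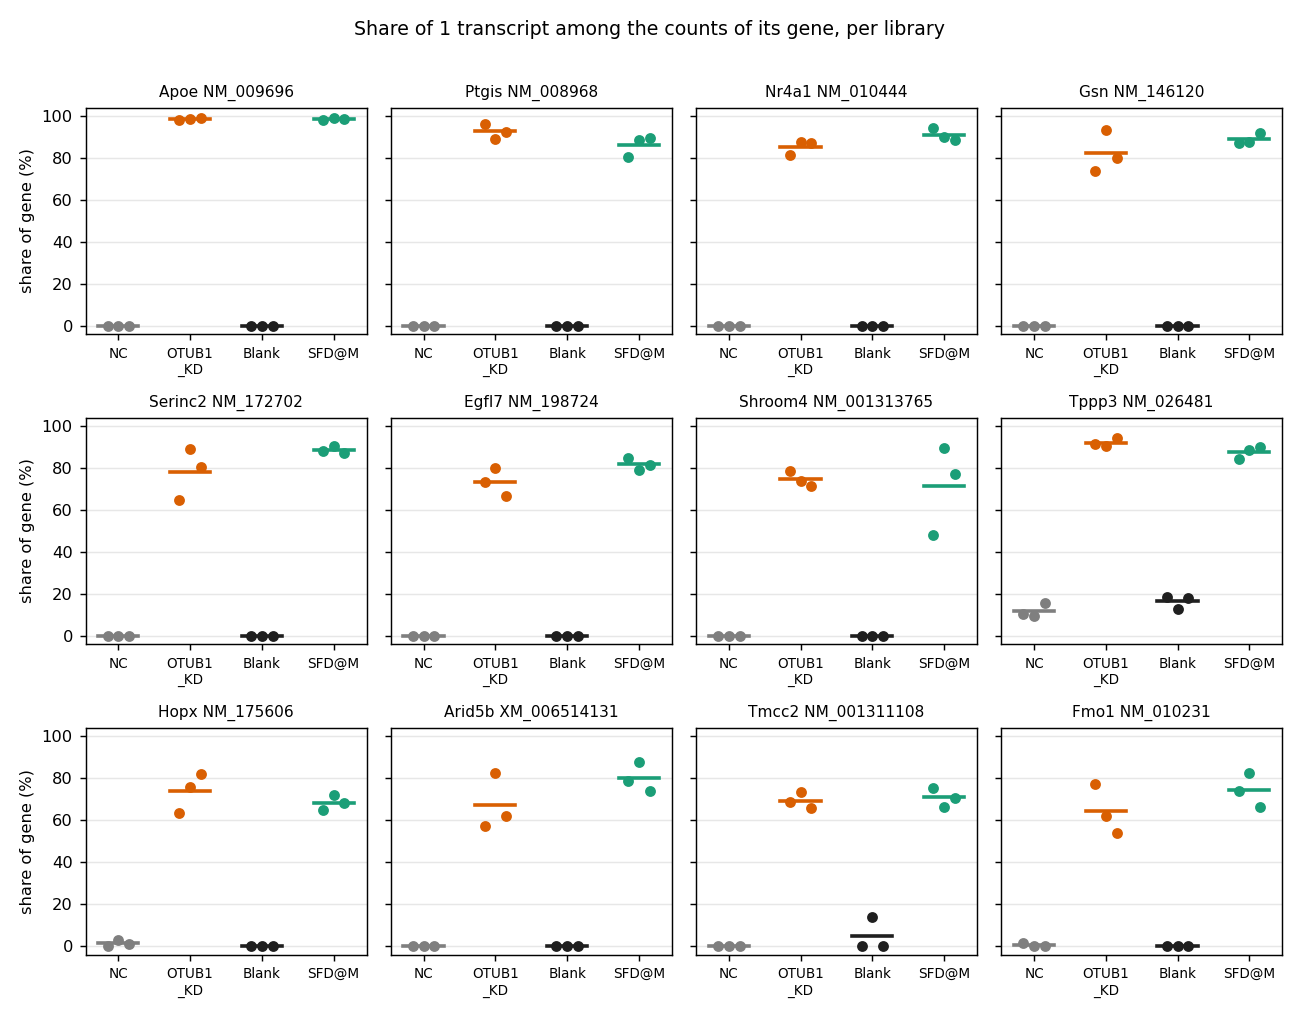
Share of the gaining transcript in 12 of the genes with the largest change alike in both experiments, as a percentage of the counts of the gene. Each point is 1 library and each bar a group mean of 3. NC and Blank lie at or near 0% in all panels, except 1 Blank library at 14.0% for Tmcc2 and all 6 at 9.40 to 18.8% for Tppp3.

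Epb41l2 and Macf1, both linkers of the cytoskeleton, were the genes in that group whose leading transcript among those moved alike lost share. Epb41l2, a protein 4.1 family member of the membrane skeleton, had NM_001199265 at 46.8, 67.1 and 52.9% in NC, at 71.6, 48.3 and 66.7% in Blank and at 0% in all 6 others, where 3 counts of the smallest gene sum would be 0.0826 or 0.0660%. The curated NM_013511, with the same coding sequence, held 51.6% ± 0.903 in OTUB1_KD and 42.8% ± 5.73 in SFD@M. Macf1, which ties actin filaments to microtubules, had the predicted XM_011240416 at 33.8 to 76.4% in NC and Blank and at 0.00101% or less elsewhere. Its near twin XM_011240417, which passed in the treatment experiment alone (adjusted p = 0.57 and 0.019), held 75.0 to 81.5% in OTUB1_KD and SFD@M, but within NC it ranged from near 0 to 27.0%, so the split between such similar transcripts varied even within a group. Phc2, a Polycomb protein, had XM_006503238 at 22.4, 84.0 and 75.1% in OTUB1_KD and 72.2 to 83.3% in SFD@M. It differed between the controls, at 0 to 1.26% in NC and 18.1 to 27.9% in Blank.

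Of 7270 genes, 5531 (76.1%) had the same leading transcript, that of highest mean share, in all 4 groups. The same switch from 1 leading transcript to another was seen in both experiments in 587 genes (8.07%). Taken 1 pair of groups at a time, the leading transcript differed between OTUB1_KD and NC in 1259 genes, between SFD@M and Blank in 1238, between SFD@M and OTUB1_KD in 683 and between Blank and NC in 649. In 58 of the 587 genes both leaders held more than 50% of the gene in each of the 6 libraries on their side. Tppp3, a tubulin-binding protein, led these by shares of counts, with its leaders at 81.2% or more throughout, followed by Ptgis (80.6%) and Gsn (73.6%). The Tppp3 leaders differ in effective length, at 3128 bases for XM_006531324 and 721.2 for NM_026481. By shares of TPM XM_006531324 held only 63.1% in NC and 53.6% in Blank, and NM_026481 36.9 and 46.4%. NM_026481 held 98.0 and 96.8% in OTUB1_KD and SFD@M by that measure. Dlg3, a scaffold protein of cell junctions, and Dnajc13, an endosomal chaperone, also belonged to the 58, with lowest shares of 64.0 and 63.1%. Of the 587 switches, 152 joined curated transcripts linked to a coding sequence in GENCODE. The coding sequence was identical in 44 of the 152 (28.9%), differed only at its start in 53 (34.9%), only at its end in 13 (8.6%) and only inside in 30 (19.7%).

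Genes of the actin cytoskeleton had changed usage in 17 of 25 tested (68.0%), against 20.8% of all tested genes. Their largest pooled share difference had a median of 17.5 points, against 10.7 points over all tested genes. The lists were put together with earlier results of these data known, so these shares describe the lists and are no test of them. Of the 17, Tpm1, Cttn, Evl, Sptbn1 and Lima1 held a transcript that moved alike in both experiments (5 of 25 tested, beside 3.48% of all tested genes). For tropomyosin 1, an actin filament coat, the short form NM_001164253 held 0.0515 to 0.576% in NC and 0.756 to 0.939% in Blank. It reached 2.75, 14.4 and 15.6% in OTUB1_KD and 11, 17.1 and 12.6% in SFD@M (log2 change of usage 4.90 ± 0.78 and 4.4 ± 0.18, adjusted p = 9.0e-04 and 2.9e-11). The main Tpm1 transcript, NM_024427, lost more, from 69.3% ± 0.176 to 45.1% ± 9.79 and from 72.2% ± 0.371 to 37.3% ± 3.56, without overlap. By edgeR this loss passed in neither experiment, and by limma on logit shares the adjusted p was 0.056 and 0.0020. In Lima1, an actin-bundling LIM protein, the predicted XM_006521245 went from 15.1% ± 7.18 to 52.8% ± 12.3 and from 17.5% ± 2.86 to 50.4% ± 2.56 (adjusted p = 0.024 and 5.9e-05). Pdlim5, a Z-disc and stress fibre adaptor, had the form without an inner coding piece of 327 bases, NM_001190854, at 41.1% ± 8.71 against 13.5% ± 5.78 and at 64.3% ± 6.95 against 14.1% ± 2.73. Only the second of these differences passed the test alone (adjusted p = 0.071 and 1.1e-05). Smooth muscle and pericyte markers moved too, with 4 genes at 83.9 to 88.5 CPM in Blank and 279 to 415 CPM in SFD@M, and at a median of 97.3 CPM in NC and 292 to 500 CPM in OTUB1_KD. Fibroblast markers summed to 194 to 222 CPM in NC and Blank and to 1234 to 2678 CPM in the others, and the part of either in these results was not tested.

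Among septins, which form filaments beside actin, 3 of 6 genes (50%) passed, against 20.8% of all tested genes. Septin6 was alike in both experiments (1 gene, beside 3.48% of all tested genes). Septin6 had NM_001253706 at 9.07 to 13.1% in NC, 3.48 to 6.19% in Blank, 46.7 to 78.9% in OTUB1_KD and 54.3 to 70.7% in SFD@M (adjusted p = 0.018 and 0.011). Membrane traffic coats and adaptors passed in 10 of 28 genes (35.7%, against the same 20.8%). Of the 28, Ap1s2 and Numb were alike in both (2 genes, beside the same 3.48%). Numb, an endocytic adaptor that restrains Notch, had NM_010949 at 24.5, 36.1 and 47.7% in OTUB1_KD and 17.3, 21.8 and 34.1% in SFD@M. In NC it was at 0%, where 3 counts of the smallest gene sum would be 0.365%, and in Blank at 0 to 0.227%.

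The RNA-binding regulators of splicing were followed in 3 lists. Among SR proteins and TRA2, which promote exon inclusion, 2 of 10 genes (20%) passed, and among hnRNP genes, many of which oppose it, 2 of 21 (9.52%) did, beside 20.8% of all tested genes. Transcripts alike in both experiments were found in 0 genes of either list, which at a background of 3.48% of genes says nothing about lists of this size. Other splicing regulators passed in 10 of 25 genes (40.0%), with Qk and Rbm10 alike in both. Rbm10, an RNA-binding regulator of exon skipping, had XM_030251320 at 4.97, 36.0 and 41.5% in OTUB1_KD and 20.7 to 29.8% in SFD@M, against 0% in NC and at most 0.699% in Blank. In Srsf2 the curated NM_011358 held 61.5% ± 0.999 in NC and 40.9% ± 7.70 in OTUB1_KD, and 71.8% ± 0.830 in Blank and 32.6% ± 3.33 in SFD@M, and passed in the treatment experiment alone (adjusted p = 0.98 and 1.8e-04). Ptbp1 passed in neither: its form with a further 78 coding bases, NM_001077363, held 57.0% ± 0.877, 46.1% ± 2.14, 47.4% ± 1.20 and 46.0% ± 9.89 in NC, OTUB1_KD, Blank and SFD@M.

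The exchange of the mutually exclusive exons of pyruvate kinase (Pkm), a glycolytic enzyme, stayed short of the edgeR test. PKM1 held 27.0 to 27.3% of Pkm in NC and 10.8, 17.7 and 14.1% in OTUB1_KD. It held 16.4 to 17.2% in Blank and 9.90, 12.7 and 14.3% in SFD@M. The groups did not overlap in either experiment, yet the log2 changes of usage, -1.09 ± 0.58 and -0.45 ± 0.12, did not pass by edgeR (adjusted p = 0.71 and 0.34, and 0.16 pooled). The pooled call depended on the test: by limma on logit shares the adjusted p was 0.067 and 0.18, and 0.0066 pooled. The mean PKM1 shares of NC and Blank, 27.2 and 16.7%, lay further apart than those of Blank and SFD@M, 16.7 and 12.3%. Pkm as a gene was at 3338 CPM ± 121 in NC, 1285 ± 897 in OTUB1_KD, 3896 ± 20.9 in Blank and 438 ± 36.2 in SFD@M.

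The histone variant macroH2A1 (Macroh2a1) also has mutually exclusive exons, of which that of macroH2A1.1 makes the ADP-ribose-binding form. NM_001159515, with that exon, held 26.4% ± 1.71 in NC and 25.2% ± 6.06 in OTUB1_KD. It held 14.1% ± 0.353 in Blank and 33.3% ± 0.968 in SFD@M, and only this second difference passed (adjusted p = 1.0 and 0.020). The difference between the experiments did not pass (adjusted p = 0.90). These are shares of 1 transcript, and the other curated Macroh2a1 transcripts were not sorted by exon. Of those, NM_001159514 went from 7.97 to 22.7% and NM_012015 from 24.6 to 10.1% between Blank and SFD@M (edgeR, adjusted p = 0.027 and 0.033). In NC and OTUB1_KD they held 13.2 and 16.5%, and 16.8 and 15.7%, and neither passed there. Pik3r1, a regulatory subunit of PI3-kinase, had p55-alpha at 20.1, 25 and 15.6% in NC and 59.0, 63.7 and 51.7% in OTUB1_KD. Its share was 18.9, 13.8 and 13.9% in Blank and 58.3, 59.1 and 61.1% in SFD@M. Groups were far apart in both experiments, with an adjusted p of 0.073 in the first (0.019 by limma on logit shares) and 2.0e-05 in the second. The growth factor receptor Fgfr1 had the form that lacks 267 inner coding bases, those of its first immunoglobulin domain, at 30.5% ± 2.29 and 46.9% ± 17.3 in NC and OTUB1_KD, and at 26.2% ± 1.17 and 56.9% ± 10.1 in Blank and SFD@M (adjusted p = 1.0 and 0.035). RAS, MAPK and growth factor genes as a list passed in 7 of 34 genes (20.6%), close to the 20.8% of all tested genes.

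Genes of ferroptosis, the iron-dependent death by lipid peroxidation named in the series title, passed in 5 of 16 tested (31.2%, against 20.8% of all tested genes). By edgeR 0 of the 16 were alike in both experiments, beside 3.48% of all tested genes. The main Gpx4 transcript, NM_001367995, which encodes the lipid peroxide reductase, held 76.8% ± 2.87, 85.1% ± 2.85, 82.6% ± 1.83 and 87.5% ± 3.10 in NC, OTUB1_KD, Blank and SFD@M. The Gpx4 shares did not overlap between the groups of either experiment, but did not pass by edgeR (adjusted p = 1.0 in both). By limma on logit shares the adjusted p was 0.16 and 0.22 in the experiments alone and 0.029 pooled. Keap1, the adaptor that marks NRF2 for degradation, had NM_001110307 at 57.1% ± 3.05 and 82.9% ± 6.75 in NC and OTUB1_KD and at 60.0% ± 2.95 and 82.0% ± 2.94 in Blank and SFD@M. Its groups did not overlap in either experiment, and the call depended on the test, at an adjusted p of 1.0 and 0.65 by edgeR and of 0.048 and 0.0076 by limma on logit shares, by which it would count as alike in both. OTUB1-linked enzymes and ubiquitin-specific proteases passed in 9 of 34 genes (26.5%, against 20.8% of all tested genes), with Usp24 alike in both (1 gene, where the background is 3.48%). Usp1, a deubiquitinase of DNA repair, had NM_001356424 at 11.1% ± 1.42 and 55.7% ± 12.7 in NC and OTUB1_KD and at 29.2% ± 1.76 and 56.9% ± 5.95 in Blank and SFD@M (adjusted p = 0.066 and 0.039; 0.018 and 0.0074 by limma on logit shares).

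Genes of mitosis and DNA replication passed in 3 of 16 (18.8%) and cytosolic ribosomal proteins in 2 of 10 (20%), both close to the 20.8% of all tested genes. In either list 0 genes were alike in both experiments, which at a background of 3.48% of genes says nothing about lists of this size. Of the ribosomal genes Rps24, known for its alternative last coding exons, had NM_207634 at 15.2% ± 0.947 and 6.32% ± 6.87 in NC and OTUB1_KD and at 17.4% ± 0.332 and 4.95% ± 0.505 in Blank and SFD@M (adjusted p = 0.62 and 2.9e-07). Its NM_207635 had the higher share in OTUB1_KD and SFD@M, at 4.71 and 11.4% in NC and OTUB1_KD and 3.20 and 14.2% in Blank and SFD@M (adjusted p = 0.50 and 1.1e-08). NM_011297 lay between 27.3 and 29.9% in the group means. A panel of genes with well-known isoforms passed in 24 of 57 (42.1%, against the same 20.8%). Of the 57, Tpm1, Fn1, Vegfa, Cttn, Numb, Macf1, Ctnnd1, Arhgef11 and Clstn1 were alike in both (9 genes, beside 3.48% of all tested genes). Ctnnd1, the p120 catenin of cell junctions, lost the predicted XM_030247019, from 18.7% ± 5.53 to 2.01% ± 3.39 and from 16.3% ± 2.87 to 0.613% ± 0.980 (adjusted p = 0.035 and 4.3e-05). Myl6, the essential myosin light chain, kept NM_010860 at 61.5 to 71.0% in the group means. For Rac1 and Cd44, 1 transcript held most of the gene and left no pair to test; in Cd44, the hyaluronan receptor, NM_001039151 held 96.8% ± 0.286, 89.3% ± 4.23, 96.7% ± 0.785 and 84.0% ± 1.37 in NC, OTUB1_KD, Blank and SFD@M.

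Usage as a whole set SFD@M apart from NC and Blank. The distance between a pair of libraries, the share of a gene's counts that sits on other transcripts averaged over the 7270 genes, was 9.96 to 10.1 points within NC, 10.1 to 10.3 within Blank and 11.4 to 11.8 between NC and Blank. Between NC or Blank and SFD@M it was 17.4 to 18.9 points. Between NC or Blank and OTUB1_KD it was 14.0 to 21.1 points. SFD@M and OTUB1_KD were 12.0 to 16.6 points apart and the OTUB1_KD libraries 13.5 to 16.2 points from each other. The OTUB1_KD libraries therefore varied most within their group.

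Over the 1043 transcripts chosen in the treatment experiment, OTUB1_KD replicates 1, 2 and 3 had moved from NC by a median of 53.0, 92.4 and 75.9% of the difference between SFD@M and Blank. Replicate 1, the lowest, had the lowest Sftpc (6755 CPM, against 15717 and 16397) and the highest Mki67 (208 CPM, against 72.1 and 47.7). The order did not hold further: replicate 3 had the highest Sftpc and the lowest Mki67 but had moved less than replicate 2. Ptprc, a leukocyte gene, was at 224, 239 and 154 CPM in replicates 1, 2 and 3. With 3 libraries no relation can be tested, and the part of cell content in these shifts was not tested.

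**Figure D4:**
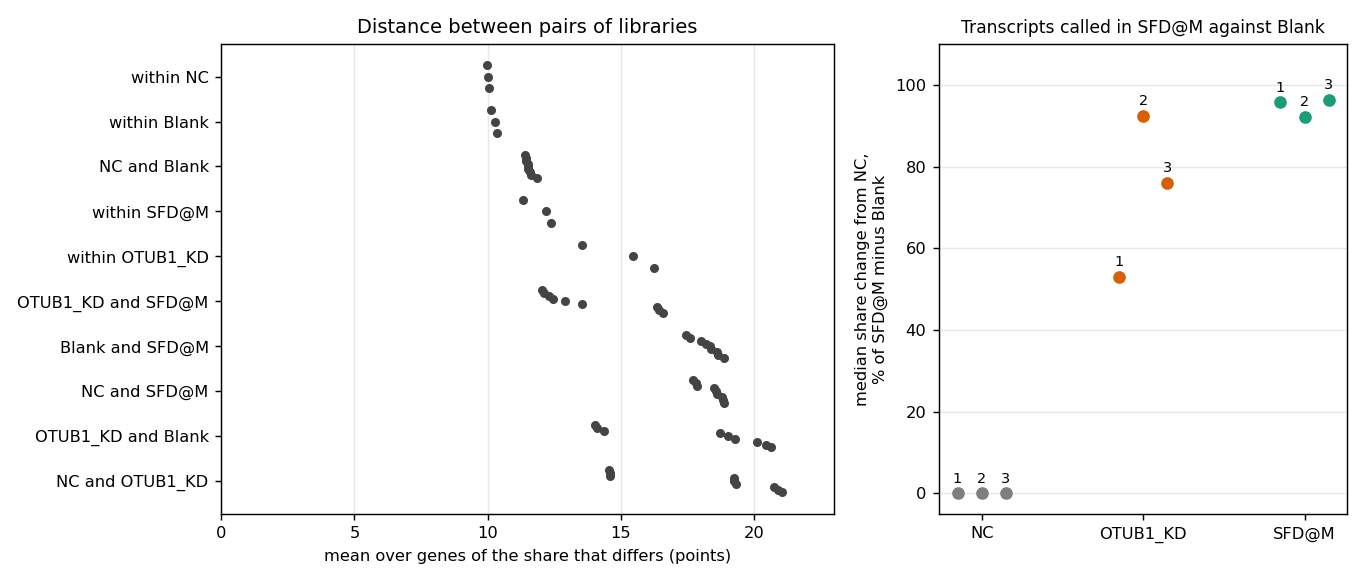
Left, distance between each pair of libraries, as the mean over 7270 genes of the percentage of counts placed on other transcripts, by pair of groups (each point 1 pair). Right, median share change from NC over 1043 transcripts, as a percentage of the difference between SFD@M and Blank, for each numbered library. The transcripts were chosen on SFD@M against Blank and NC is the baseline, so the SFD@M and NC points are no independent reference. Pairs that cross from NC or Blank to SFD@M lie at 17.4 to 18.9 points, and OTUB1_KD replicate 1 lies lowest of its group at 53.0%.

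Counts were spread over slightly more transcripts in OTUB1_KD and SFD@M. The leading transcript of the median gene held 76.4 to 76.5% in NC, 76.3 to 76.8% in Blank, 73.9 to 74.6% in OTUB1_KD and 73.3 to 74.3% in SFD@M. The effective number of transcripts, the exponential of the Shannon entropy of the shares, had a median over genes of 1.88 in NC and Blank and 1.93 in OTUB1_KD and SFD@M. Predicted accessions held 24.3 and 24.2% of a gene in NC and Blank and 26.7 and 26.6% in OTUB1_KD and SFD@M. Each of these 3 measures gave 0.005 in an exact two-sided permutation test within experiments, the smallest p that 400 arrangements allow (adjusted over 4 measures, 0.00667). The mean length of transcripts weighted by share differed by -0.00681 on the log2 scale, which did not pass (exact permutation p = 0.065). Its means were 0.00678 in NC and -0.00719 in OTUB1_KD, where replicate 3 was at -0.0166, and 2.43e-05 in Blank and 3.88e-04 in SFD@M, so the difference lay in the knockdown experiment.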

How the data were processed

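Messenger RNA was enriched with oligo(dT) beads per the labels' protocols, and read on a DNA nanoball sequencer. The authors deposited 1 table of transcripts with estimated read counts (expected counts, which need not be whole), TPM, FPKM and normalized counts per library, per the file headers; RSEM 1.3.1, Bowtie2, DESeq2 1.4.5 and the build GRCm39 stand in the submitters' processing notes, which tie no tool to a value. Strand handling is not given in the sources used here. Similar transcripts share reads, which the authors' estimation divides among them, so a share of 0 is an estimate, and limits of 3 counts cover counting error only. Deposited TPM entered an alternative, FPKM and normalized counts were not used, and 28 further columns were not used. Totals were 16062806 to 18028828 counts per library, and the members held 54.22 to 66.78% of them.

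Counts of an accession listed at more than 1 locus of a gene were summed, a choice made after seeing the files. Symbols came from the RefSeq table of GRCm38.p6, for names alone, and 7258 of 7270 members matched. Coding sequences came from GENCODE M21 (GRCm38); no coordinates are given because the files use GRCm39. Isoform pairs for sequences were chosen after their values were seen.

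Usage was tested with edgeR 4.0.16 in R 4.3.3 on counts rounded to whole numbers: TMM factors, glmQLFit with robust = TRUE, diffSpliceDGE, with the Benjamini-Hochberg adjustment over all 17496 transcripts tested and a call at adjusted p below 0.05. Transcripts entered with a mean share of at least 5% over the 12 libraries. Each experiment was fitted alone; the pooled contrast and the difference between experiments were fitted on all 12 libraries. A fitted change for a transcript at 0 in a group depends on the prior count and is not given as a fold. The SE printed with a log2 change is the absolute change divided by the square root of its F statistic. It was derived from the test in this way and not estimated by the fit. The test was tried on simulated counts first. There it found few of the changes planted at the spread estimated from the 12 libraries together, and some of its calls were false. That spread was the same for every group, so the larger spread of OTUB1_KD was not simulated. Limma 3.58.1 (voom, and logit shares), DESeq2 1.42.0 and a newer quasi-likelihood fit of edgeR were then also run on the real data, and the planned test was kept.

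The members and lists were chosen with earlier results of these data known. Named genes were the 20 with the largest change alike in both experiments, a panel of 20 genes whatever their p, the 5 with the smallest p in the difference between experiments, and up to 3 per list; predicted genes were left out of the first. Dlg3 and Dnajc13 fall outside this rule and were chosen after their values were seen. The share of the leading transcript was added, the length measure was changed from the median to the mean gene, and the share of predicted accessions replaced that of non-coding ones, of which the table held none, all after seeing the data. Replicate numbers did not pair the libraries: same-numbered libraries of different groups correlated at -0.0452 to 0.0346 in their deviations from the group means (18 pairs). Alternatives were other size factors and filters, the tools named above, shares of TPM, a replicate block and leaving out each library.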

Additional observations from a re-analysis of the deposited data

Results flagged for a closer look

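For 6 named transcripts the log2 change of usage differed between the experiments (the treatment change minus the knockdown change, edgeR, 12 libraries). All 6 had a group at or near a share of 0%, so the fitted values depend on the prior count, and the shares are the measurement. Luc7l2 NM_138680, of a U1 snRNP factor, was at 0% in NC and 7.60 to 15.5% in OTUB1_KD, and at 2.58 to 4.91% in Blank and 6.25 to 7.00% in SFD@M (-11.89, adjusted p = 6.7e-12). Phf12 XM_017314564, of a PHD finger repressor, was at 0% in NC and 30.6 to 41.3% in OTUB1_KD, and at 5.01 to 12.3% in Blank and 15.2 to 19.6% in SFD@M (-10.72, adjusted p = 4.2e-08). For both, every OTUB1_KD and SFD@M library lay above the libraries of its own control, and the control shares of NC and Blank differed. Fut8 NM_001252615, of a fucosyltransferase, was at most 0.00159% in NC, 7.73 to 50.3% in OTUB1_KD, 0.587 to 9.60% in Blank and 4.05 to 12.5% in SFD@M (-12.26, adjusted p = 6.8e-06). Phc2 XM_006503238, described above, gave -5.30 (adjusted p = 0.022). The other two were at 0% in SFD@M. Pou2f1 NM_011137, of the octamer-binding factor, held 14.5 to 41.0% in NC, 17.1 to 24.8% in OTUB1_KD and 18.7 to 22.0% in Blank (-9.61, adjusted p = 4.1e-06). Rbms1 NM_020296, of an RNA-binding protein, held 14.7 to 15.3% in NC, 4.85 to 19.4% in OTUB1_KD and 12.2 to 18.4% in Blank (-11.48, adjusted p = 3.5e-05). Under limma on logit shares, limma voom and the newer quasi-likelihood fit, only Phf12 passed with all 3 (adjusted p = 0.0051, 0.011 and 0.00085).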

How the results depend on the processing

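Counts, and their split into higher and lower shares, depended on the test. The pooled split of 1029 higher and 647 lower was 2446 and 2133 with the newer quasi-likelihood fit. It was 3712 and 3809 with DESeq2 and 2785 and 2800 with limma on logit shares of TPM. For the difference between experiments, the split of 18 and 49 was 30 and 28 with voom. Where the planned edgeR test called 1676 transcripts in the pooled comparison, 439 in OTUB1_KD against NC, 1191 in SFD@M against Blank, 67 in the difference between experiments and 221 alike in both, limma voom called 5523, 1471, 4459, 58 and 865. Limma on logit shares of counts called 5613, 1375, 3717, 35 and 788, the newer quasi-likelihood fit 4579, 1556, 3826, 30 and 842, and both were added after seeing the data. DESeq2 called 7521, 4383 and 5865 in the first 3, limma on logit shares of TPM 5585, 1357 and 3658, and shares of TPM gave 760 alike. Without the filter on share the pooled count was 2636; with a mean share of at least 10%, OTUB1_KD against NC gave 257, and from the fit of 12 libraries 672. A limit of 20 points left 143 alike. With genes of 200 or more counts the length measure was -0.00704 and passed (exact permutation p = 0.045), with means of 0.00669 and -0.00721 in NC and OTUB1_KD but 3.50e-04 and 1.76e-04 in Blank and SFD@M. With a replicate block the counts were 1488, 342, 831, 38 and 136; the numbers do not pair the libraries, and the block changed no pooled call among 72 named transcripts (1 per gene), of which 44 were called. Limma on logit shares of TPM and of counts, the newer fit and voom lost none of these pooled calls and added 25, 24, 18 and 17.

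Leaving out each library gave 1393 to 2061 pooled calls, 296 to 768 in OTUB1_KD against NC, 880 to 1049 in SFD@M against Blank, 51 to 107 in the difference, 151 to 334 alike and 512 to 618 switches. Without OTUB1_KD replicate 1 the counts were 768, 107 and 334 for OTUB1_KD against NC, the difference and those alike, and without its replicate 2 the difference gave 103. Over the 72 named transcripts, 837 of these refits kept the side of the threshold, 21 lost a call and 6 gained one. Depth limits shares most where NC or Blank hold few counts of a gene, as for Apoe and Ptgis; precision in OTUB1_KD is limited by the spread of its 3 libraries.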

Other observations

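Several genes exchanged isoforms while the level of the gene stayed within 2-fold in both experiments, which held for 91 of the 203 genes with a transcript moved alike (44.8%), against 56.5% of all tested genes. The examples were chosen after their values were seen. Wnt5a, a secreted ligand of planar polarity signalling, gained NM_001256224 by 52.5 and 52.4 points at log2 level changes of 0.39 and -0.03. Trim14, an adaptor of antiviral signalling, gained NM_029077 by 47.2 and 56.9 points at 0.41 and -0.24. Nadk, the cytosolic NAD kinase, gained NM_138671 by 43.6 and 51.1 points at 0.90 and 0.50. Pkig, an inhibitor of protein kinase A, gained NM_011106 by 40.3 and 44.3 points at 0.33 and 0.06. Ak1, adenylate kinase, gained NM_001198791 by 41.7 and 62.3 points at -0.15 and -0.78. A gene 2-fold higher in both made up a larger part of the 203 (59, 29.1%) than of all tested genes (11.4%), and a gene 2-fold lower in both made up a smaller part (10, 4.93%, against 11.4%), as a description without a test.

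Curated accessions made up 62.4% of the 221 transcripts moved alike and 56.0% of those tested.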
